A study of Mus musculus with 6 samples.

Results

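Kupffer cells, the macrophages that live inside the sinusoids of the liver, were followed here through 9 genes that mark their identity: Clec4f, Timd4, Vsig4, Cd5l, Marco, Cd163, Folr2, Mrc1 and Cd68. The genes were taken by symbol, 9 of the 26608 rows of the count table, and each had its own row. Whole-liver RNA had been sequenced from 6 mice aged 6 weeks, 3 of them LiK and 3 LiKM by genotype, and the libraries held between 19909993 and 24874343 counts. The labels give the genotypes only as these names, and give neither sex nor strain. From what is known of the published study, which the labels do not state, LiKM livers have lost Mdm2 in hepatocytes and LiK livers have not, a deletion brought about by Cre from the albumin promoter, which is active in hepatocytes. The deletion is thus aimed at hepatocytes, and the macrophage genes were read from the same bulk tissue. In bulk RNA, more cells of a type cannot be told apart from more RNA per cell.

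Resident Kupffer cells are seeded before birth, renew themselves in the liver and depend on signals from sinusoidal endothelium, stellate cells and hepatocytes, among them colony stimulating factor 1. They clear bacteria, dying cells, old erythrocytes and modified lipoproteins from portal blood with a set of surface receptors. When resident cells are lost, recruited monocytes can fill the niche and acquire the same genes with time, with Timd4 known as a late one. The 9 genes differ in how narrowly they mark the cell: Clec4f is known as a Kupffer cell lectin in mice, Cd68 marks macrophages of any origin, and Mrc1 is also expressed by sinusoidal endothelium.

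Promoter sequences are shown for 4 of the genes, namely the most abundant pair (Clec4f and Cd5l), the gene with the largest fitted difference (Marco) and the only gene with a negative one (Cd163). They come from the RefSeq promoter table for GRCm38.p6, which held all 9 genes with 10 start sites, since Folr2 had more than 1, and the build behind the counts is not given in the sources used here. Each run is the 250 bases before the start site, 5′ to 3′ on the gene's strand: Clec4f at chr6:83656117-83656366 on the minus strand, Cd5l at chr3:87357631-87357880 on the plus strand, Marco at chr1:120505025-120505274 on the minus strand and Cd163 at chr6:124304401-124304650 on the plus strand. Capitals mark GAGGAA, letters found in many sites of the myeloid factor PU.1, and TGCTGA, letters of the element bound by MAF factors, each on either strand.
Clec4f: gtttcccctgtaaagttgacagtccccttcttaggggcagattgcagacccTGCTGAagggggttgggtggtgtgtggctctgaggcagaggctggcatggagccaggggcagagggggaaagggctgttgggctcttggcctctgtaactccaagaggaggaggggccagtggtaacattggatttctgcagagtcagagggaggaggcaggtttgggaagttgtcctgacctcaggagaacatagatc
Cd5l: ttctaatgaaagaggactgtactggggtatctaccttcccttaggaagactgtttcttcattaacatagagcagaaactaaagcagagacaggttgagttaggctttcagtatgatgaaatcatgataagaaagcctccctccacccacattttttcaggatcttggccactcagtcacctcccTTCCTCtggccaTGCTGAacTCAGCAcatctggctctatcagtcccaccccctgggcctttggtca
Marco: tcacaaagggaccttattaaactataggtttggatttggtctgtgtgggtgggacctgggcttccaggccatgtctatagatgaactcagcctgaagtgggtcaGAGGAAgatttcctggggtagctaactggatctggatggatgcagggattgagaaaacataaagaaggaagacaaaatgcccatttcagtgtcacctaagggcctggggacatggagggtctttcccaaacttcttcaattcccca
Cd163: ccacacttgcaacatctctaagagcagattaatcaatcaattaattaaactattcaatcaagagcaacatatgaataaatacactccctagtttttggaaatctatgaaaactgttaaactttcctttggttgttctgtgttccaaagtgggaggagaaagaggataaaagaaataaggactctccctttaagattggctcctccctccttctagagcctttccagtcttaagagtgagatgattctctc

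GAGGAA stood in 5 of the 10 windows, including that of Marco, and in 23.3% of the 32851 windows of the same length in the table. TGCTGA stood in 5 of the 10 windows, including those of Clec4f and Cd5l, and in 16.1% of all windows. Cd163 held neither set of letters. Of the other letters searched on both strands, CAGGTG was in 1 of the 10 windows (17.2% of all), AGGTCA in 2 (14% of all), TATAAA in 0 (12.4% of all) and TTGCNNAA in 1 (9.56% of all). Matches of GAGGAA and TGCTGA did not overlap in the 4 windows printed. These are matches of letters only and do not show a bound factor.

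Of the 9 Kupffer cell genes, 8 had a higher mean level in LiKM livers than in LiK livers, but only Cd68 passed the test across all genes. Cd68 rose 1.97-fold, while Marco had the largest fitted fold change (4.03) and just missed the threshold. Clec4f, Timd4, Vsig4, Cd5l and Folr2 had fitted fold changes between 1.40 and 1.74, Mrc1 had 1.16, and Cd163 had 0.687. Genes were called where the p of edgeR's quasi-likelihood test, adjusted by Benjamini-Hochberg over all genes, was under 0.05. By that rule 1 of 9 genes was higher in LiKM, against 5.11% of all 13537 genes tested, and 0 were lower, against 0.813% (5.92% in either direction). At an unadjusted p under 0.05, 7 of the 9 passed in edgeR, all higher in LiKM and none lower, where 22.4% of all genes did so in either direction. DESeq2 and limma-voom also called 0 of the 9 lower. The 9 log2 fold changes had a median of 0.58, beside a median of −0.00 over all genes tested. All 9 genes passed the filter on low counts, and the lowest count of any of them in any library was 92 (Marco in LiK 3).

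**Figure D1:**
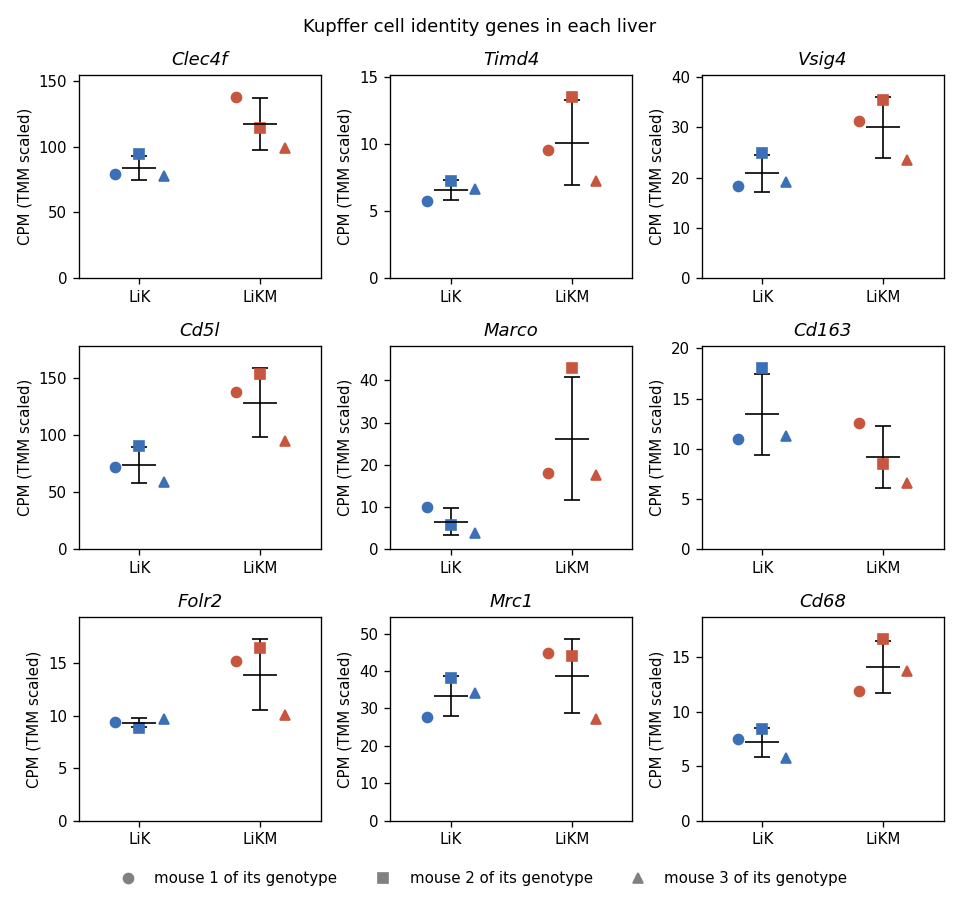
Level of each of the 9 Kupffer cell genes in each liver, in CPM after TMM scaling (vertical axes start at 0), with the bar and whiskers giving mean and SD of the 3 mice of a genotype. The LiKM mice lie above all LiK mice for Clec4f, Cd5l, Marco, Folr2 and Cd68, and mouse 3 of LiKM (triangle) is the lowest of its group in 8 of 9 panels.

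Clec4f, a C-type lectin that binds galactose-containing sugars, is the gene of the set that is most confined to Kupffer cells in mice. Its level, in CPM (counts brought to the same library size, here by TMM), was 79.5, 94.2 and 77.6 in LiK mice 1 to 3 and 138, 114 and 99.3 in LiKM mice 1 to 3. The groups did not overlap, though LiKM 3 lay only a little above LiK 2. Clec4f had a log2 fold change of 0.48 (SE 0.15, 95% interval 0.13 to 0.84) and was not called (adjusted p = 0.112 in edgeR). Intervals here and below are for single genes and are not adjusted for the number of genes tested.

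Timd4 encodes a receptor for phosphatidylserine on dying cells. Its level was 5.78, 7.25 and 6.69 CPM in LiK and 9.59, 13.6 and 7.23 CPM in LiKM. LiKM 3 lay within the LiK range, just below LiK 2, and the groups overlapped. Its log2 fold change of 0.62 (SE 0.24, 95% interval 0.05 to 1.20) was not called (adjusted p = 0.188 in edgeR).

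Vsig4, the complement receptor with which Kupffer cells catch opsonised bacteria from the blood, followed the same order of libraries. It was at 18.4, 25.0 and 19.0 CPM in LiK and at 31.3, 35.3 and 23.4 CPM in LiKM. LiKM 1 and LiKM 2 stood above all LiK mice, and LiKM 3 fell below LiK 2. For Vsig4 the log2 fold change was 0.53 (SE 0.19, 95% interval 0.09 to 0.98; adjusted p = 0.158 in edgeR).

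Folr2, the folate receptor beta of resident macrophages, had the tightest LiK group. It lay at 9.39, 8.86 and 9.73 CPM in LiK and at 15.2, 16.5 and 10.1 CPM in LiKM, with LiKM 3 close to LiK 3. The groups did not overlap. A log2 fold change of 0.58 (SE 0.20, 95% interval 0.12 to 1.04) was not called with all 6 libraries (adjusted p = 0.141 in edgeR), and it was called without LiKM 3 (0.74, adjusted p = 0.0343). The antisense gene Gm10602 covers 975 of the 1546 exonic bases of Folr2 on the opposite strand in GENCODE M21. The strand setting of the counting is not given, so reads of the pair may not have been told apart. None of the other 8 genes shared exonic bases with another annotated gene.

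Cd5l, a secreted scavenger protein (also called AIM) that circulates with IgM, was the most abundant gene of the set per length. Its level was 71.9, 90.0 and 58.7 CPM in LiK and 137, 153 and 94.2 CPM in LiKM. The groups did not overlap, but LiKM 3 stood nearer to LiK 2 than to the other LiKM mice. Cd5l had a log2 fold change of 0.80 (SE 0.22, 95% interval 0.28 to 1.32), not called (adjusted p = 0.0827 in edgeR). It was called without LiKM 3 (adjusted p = 0.0422 in edgeR), in DESeq2 (adjusted p = 0.0197) and in limma-voom (adjusted p = 0.0441).

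Marco, a class A scavenger receptor that binds bacteria and particles, differed most between the genotypes and also between mice. It was at 9.97, 5.84 and 3.78 CPM in LiK and at 18.0, 43.0 and 17.6 CPM in LiKM. Every LiKM mouse exceeded every LiK mouse, and LiKM 2 was more than 2-fold above the other LiKM mice. LiK mice averaged 6.53 ± 3.15 CPM and LiKM mice 26.2 ± 14.5 CPM (SD, n = 3 each). The fitted log2 difference was 2.01 (SE 0.47, 95% interval 0.91 to 3.11; adjusted p = 0.0531 in edgeR). The DESeq2 Wald test (adjusted p = 2.75e-04) and limma-voom (adjusted p = 0.0317) called Marco, and without LiKM 2 its log2 fold change was 1.43.

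Cd68, a lysosomal glycoprotein of macrophages in general, was the called gene. It was at 7.46, 8.35 and 5.70 CPM in LiK and at 11.9, 16.7 and 13.7 CPM in LiKM. All LiKM mice lay above all LiK mice, and here LiKM 1, not LiKM 3, was the lowest of its group. The mean rose from 7.17 ± 1.35 to 14.1 ± 2.41 CPM (SD, n = 3 each). On the log2 scale the fold change was 0.97 (SE 0.20, 95% interval 0.51 to 1.44; adjusted p = 0.0377 in edgeR). The call of Cd68 was lost without any 1 of the 6 libraries, with edgeR adjusted p between 0.0586 and 0.135 and log2 fold changes between 0.81 and 1.09.

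Cd163, the receptor for haptoglobin bound to haemoglobin, and Mrc1, the mannose receptor, did not share this order. Cd163 was at 10.9, 18.1 and 11.3 CPM in LiK and at 12.6, 8.53 and 6.56 CPM in LiKM. LiKM 2 and LiKM 3 lay below every LiK mouse and LiKM 1 within the LiK range. The log2 fold change of Cd163 was −0.54 (SE 0.29, 95% interval −1.23 to 0.15), not called (adjusted p = 0.331 in edgeR). Mrc1 was at 27.6, 38.0 and 34.2 CPM in LiK and at 44.8, 43.9 and 27.2 CPM in LiKM, from just below the lowest LiK mouse to above the highest. Its log2 fold change was 0.22 (SE 0.21, 95% interval −0.29 to 0.72; adjusted p = 0.597 in edgeR), an interval that includes both no change and a 1.65-fold rise.

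**Figure D2:**
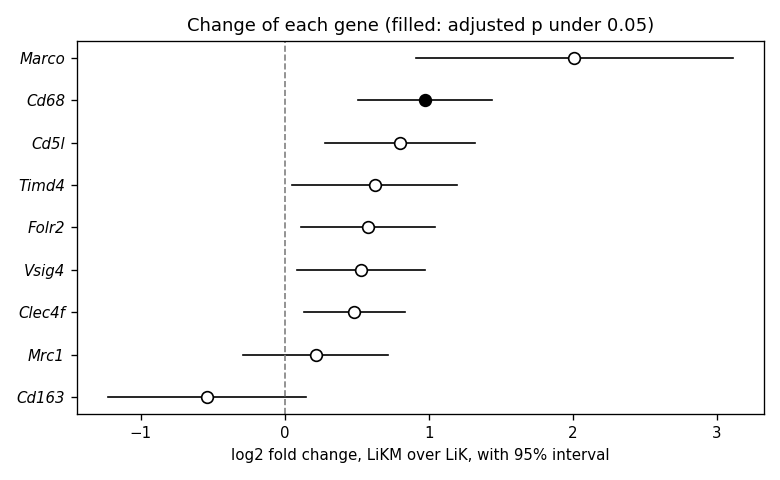
Log2 fold change of LiKM over LiK for each of the 9 genes from edgeR (points) with its 95% interval (lines), ordered by size, with a filled point for an adjusted p under 0.05. Cd68 (0.97) is the only filled point, Marco (2.01) lies farthest to the right, and the intervals of Mrc1 and Cd163 include 0.

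The groups did not overlap for 5 of the 9 genes, all higher in LiKM, against 17.8% of all genes tested that were higher without overlap and 29.6% in either direction. The position of single mice within LiKM was uneven. LiKM 1 and LiKM 2 each exceeded every LiK mouse in 8 of the 9 genes, and LiKM 3 did so in 5. For such counts of single libraries, here and below, the share over all genes tested was not taken. LiKM 3 was the lowest LiKM library in 8 of 9 genes and the highest in 0, while LiKM 2 was the highest in 6. The summed level of the 9 genes was 241, 295 and 227 CPM in LiK and 419, 444 and 299 CPM in LiKM, so the sum in LiKM 3 was close to that in LiK 2. Mdm2, the targeted gene, was at 28.7, 29.0 and 28.6 CPM in LiK and at 122, 125 and 60.5 CPM in LiKM, also lowest in LiKM 3 within that group. Although LiKM is the genotype with the deletion, Mdm2 was called higher there (log2 fold change 1.83, SE 0.27; adjusted p = 0.0196 in edgeR). That call was lost without LiK 1, LiK 2, LiK 3 or LiKM 2 (edgeR adjusted p = 0.0840, 0.0778, 0.0520 and 0.0708). A gene-level count sums all exons and does not check a deletion of some of them, and the part of this library in the Kupffer cell values beyond the fits without it was not tested.

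Levels of different genes were compared per kilobase of exon, using GENCODE M21 exon lengths (GRCm38). In LiK the order was Cd5l (36.1 CPM per kb), Clec4f (33.9), Vsig4 (14.0), Folr2 (6.03), Cd68 (5.71), Mrc1 (5.22), Marco (3.39), Timd4 (3.02) and Cd163 (2.46). The ranges of Cd5l and Clec4f over mice overlapped, as did those of Folr2, Cd68 and Mrc1 and those of Marco, Timd4 and Cd163, so neighbours within these sets were not separated by more than their spread. Marco also overlapped Mrc1, whereas Vsig4 stood apart from its neighbours on both sides. In LiKM the order was Cd5l (62.9 CPM per kb), Clec4f (47.4), Vsig4 (20.2), Marco (13.6), Cd68 (11.2), Folr2 (9.01), Mrc1 (6.07), Timd4 (4.66) and Cd163 (1.69). Marco thus moved ahead of Mrc1, Folr2 and Cd68 in mean level, though its LiKM range of 9.17 to 22.3 CPM per kb overlapped that of Folr2 (6.52 to 10.7) and that of Cd68 (9.46 to 13.2). In LiKM each gene overlapped its neighbours in this order except that Vsig4 lay below Clec4f and Cd163 below Timd4 in every mouse.

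The makeup of the set was next read against Clec4f in the same liver, which removes the library scaling. Relative to 100 Clec4f counts, the Marco counts of the LiK mice were 12.5, 6.20 and 4.87 and those of the LiKM mice 13.0, 37.7 and 17.8. Cd163 had 13.7, 19.2 and 14.6 in LiK and 9.12, 7.49 and 6.60 in LiKM. For both genes the groups did not overlap, with a Marco ratio 2.85-fold as high and a Cd163 ratio 0.489-fold as high in LiKM by the mean log2 ratio. The exact two-sided permutation p was 0.1 for each of them, the smallest this test can give with 3 against 3 mice, and 0.4 after Benjamini-Hochberg adjustment over the 8 ratios. The ratios of Timd4, Vsig4, Folr2, Cd5l, Mrc1 and Cd68 to Clec4f overlapped between genotypes, with exact permutation p from 0.2 to 0.9. Timd4 had 7.26, 7.70 and 8.62 counts for each 100 of Clec4f in LiK and 6.94, 11.9 and 7.28 in LiKM, while Vsig4 had 23.1, 26.5 and 24.6 in LiK and 22.7, 31.0 and 23.6 in LiKM.

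**Figure D3:**
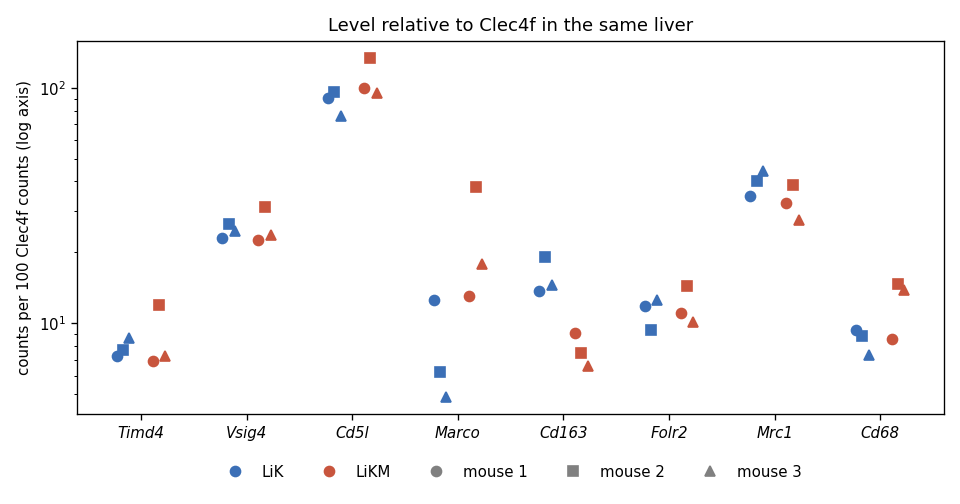
Counts of the other 8 genes per 100 Clec4f counts in the same liver (log axis), LiK in blue and LiKM in red, with the symbol giving the mouse number. The genotypes are apart for Marco, higher in LiKM, and for Cd163, lower in LiKM (exact permutation p = 0.1 for each), and overlap for the other genes.

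Markers of macrophages in general were mostly higher in LiKM. Of 16 such genes, 11 rose, 0 fell and 5 were not called by edgeR, with a median log2 fold change of 0.84 beside 0.58 for the Kupffer cell genes. Here and for the lists below, the shares over all genes tested were 5.11% higher and 0.813% lower. At so low a share, 0 genes lower in a list of this size says little. All 16 log2 fold changes were positive. Ctss, the lysosomal protease cathepsin S, rose by 1.19 (SE 0.16), Tyrobp, a signalling adaptor of myeloid cells, by 0.93 (SE 0.13), Fcer1g, the shared chain of Fc receptors, by 1.00 (SE 0.14) and Lyz2, a lysozyme, by 0.63 (SE 0.10) on the log2 scale. Emr1, which encodes the macrophage antigen F4/80, was at 8.72, 10.3 and 9.44 CPM in LiK and at 15.9, 17.4 and 12.9 CPM in LiKM and rose by 0.70 (SE 0.15; adjusted p = 0.0457 in edgeR). The fit that lacked LiK 1 or LiKM 2 called 0 members higher, that lacking LiK 2 called 1, LiK 3 called 3, LiKM 1 called 6 and LiKM 3 called 10. A difference between this list and the 9 genes was not tested.

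Set against the summed level of these 16 genes in each liver, 6 of the 9 Kupffer cell genes overlapped between genotypes. The sum was 346, 384 and 301 CPM in LiK and 596, 602 and 502 CPM in LiKM. Clec4f equalled 23.0%, 24.5% and 25.7% of it in LiK and 23.2%, 18.9% and 19.8% in LiKM, and Timd4, Vsig4, Cd5l, Folr2 and Cd68 overlapped between genotypes in the same way. Mrc1 equalled 7.98%, 9.89% and 11.4% in LiK and 7.53%, 7.28% and 5.42% in LiKM, lower in every LiKM mouse. Cd163 was lower as well, with 3.16%, 4.70% and 3.76% in LiK and 2.11%, 1.42% and 1.31% in LiKM. Marco was higher, with 2.88%, 1.52% and 1.25% in LiK and 3.02%, 7.13% and 3.51% in LiKM. These shares were chosen after the values were seen, and no test was made of them.

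**Figure D4:**
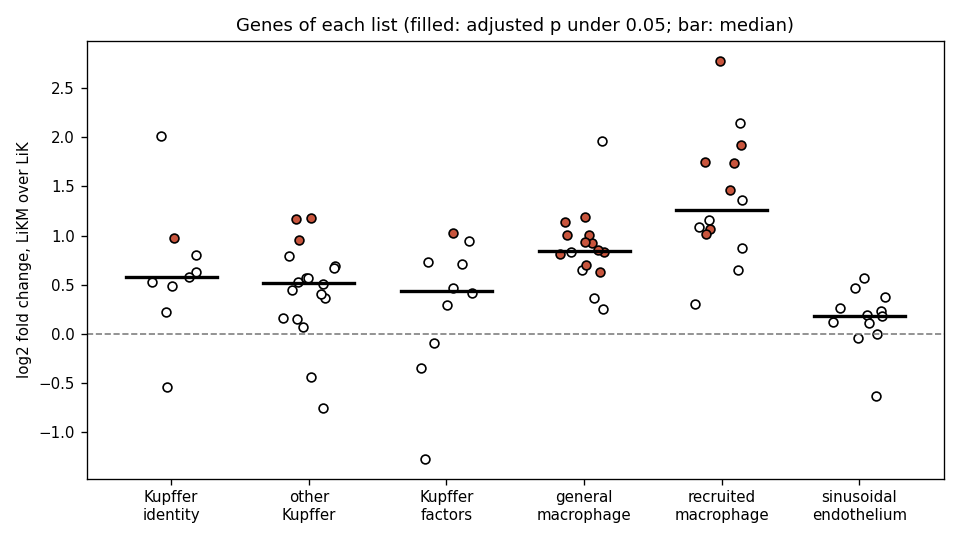
Log2 fold change of LiKM over LiK for each tested gene of 6 lists, with the list median as a bar and filled points for an adjusted p under 0.05 in edgeR. The medians are 0.58 for the Kupffer cell identity genes, 0.52 for other Kupffer cell genes, 0.44 for Kupffer cell factors, 0.84 for general and 1.26 for recruited macrophage markers and 0.18 for sinusoidal endothelium.

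Other genes linked to Kupffer cells were a further list. Of its 18 genes, 3 rose, 0 fell and 15 were not called, with 16 positive log2 fold changes and a median of 0.52. The 3 were Vcam1, an adhesion molecule that endothelium expresses too, which rose from 19.7, 18.1 and 16.0 CPM in LiK to 46.6, 42.9 and 31.7 CPM in LiKM (log2 fold change 1.17, SE 0.17), Hmox1, which degrades haem (0.96, SE 0.17), and Clec4n, the fungal receptor Dectin-2 (1.17, SE 0.25). Cd38, an enzyme that consumes NAD, had 0.57 (adjusted p = 0.0716 in edgeR). In this list, 0 genes were called higher without LiK 1, LiK 2 or LiKM 2 and 1 without LiK 3.

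Of the transcription factors that set Kupffer cell identity, 1 of 10 rose and 0 fell, near the shares over all genes tested (5.11% and 0.813%). Sfpi1, which encodes PU.1, was at 4.14, 5.59 and 4.23 CPM in LiK and at 9.73, 10.2 and 8.44 CPM in LiKM, and rose by 1.02 (SE 0.18) on the log2 scale (adjusted p = 0.0263 in edgeR). Irf8, a factor of the monocyte and macrophage lineage, had 0.94 (adjusted p = 0.0536) without overlap between genotypes. Spic, a factor of haem-handling macrophages, was scarce. LiK libraries held 11 to 21 of its counts, LiKM libraries 18 to 37, and its log2 fold change of 0.73 was not called. Zeb2 (0.70), Maf (0.47), Id1 (0.41) and Id3 (0.29) were not called either. Nr1h3 (−0.10), which encodes the sterol receptor LXR alpha, and its partner Rxra (−0.35) are expressed by hepatocytes as well.

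Among 13 genes of signals that keep or attract macrophages, 3 rose and 0 fell. Csf1, the growth factor on which Kupffer cells depend, was at 7.70, 7.85 and 9.93 CPM in LiK and at 14.6, 23.9 and 21.2 CPM in LiKM (log2 fold change 1.23, SE 0.21, edgeR adjusted p = 0.0251). The chemokine genes Cx3cl1 (1.59, SE 0.30) and Ccl2 (3.36, SE 0.69) were the others called. The LiK libraries held 7, 4 and 7 Ccl2 counts and the LiKM libraries 25, 41 and 117, so it passed the filter only through LiKM and had to differ. Csf1r, the receptor for Csf1, was at 39.1, 54.6 and 41.1 CPM in LiK and at 73.1, 82.9 and 55.2 CPM in LiKM and was not called (0.65, SE 0.19; adjusted p = 0.0996 in edgeR). Without LiK 1, LiK 2 or LiKM 2, 0 of these genes were called.

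Csf1r was also the gene whose profile lay nearest to the mean of the 9. Each gene's log2 CPM was centred on its own mean, and the root mean square difference over the 6 libraries was taken; genes averaging under 2 in log2 CPM were passed over. That difference was 0.09 for Csf1r, Abcg1 and Whsc1 and 0.10 for Kcnk6 and Sdc3, in log2 units. Within the 9 genes, Vsig4 lay nearest to the mean (0.09), followed by Cd5l (0.12), Timd4 (0.14), Folr2 (0.15) and Clec4f (0.17). Mrc1 (0.26), Cd68 (0.27), Cd163 (0.64) and Marco (0.83) lay farther off. These are descriptions over 6 libraries that include both genotypes.

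Among 8 tested scavenger receptors outside the set, 2 rose. Axl, a receptor for dying cells, rose by 0.88 (SE 0.14) and Msr1, a class A scavenger receptor as Marco is, by 1.05 (SE 0.18) on the log2 scale. Msr1 was at 5.87, 8.76 and 8.58 CPM in LiK and at 17.1, 16.1 and 15.0 CPM in LiKM, and its LiKM mice lay close together. Cd36, a fatty acid and lipoprotein receptor, had 0.52 and Colec12 −0.41, and neither was called.

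Many markers of recruited monocytes and of macrophages that form from them were higher in LiKM as well, though their sum overlapped between genotypes. Of 14 tested, 7 rose and 0 fell, with a median log2 fold change of 1.26. The summed level of the 15 listed genes was 250, 108 and 89.7 CPM in LiK and 142, 247 and 270 CPM in LiKM. Most of it was Spp1, at 225, 76.0 and 56.3 CPM in LiK and 83.6, 176 and 180 CPM in LiKM (log2 fold change 0.30, not called). The galectin gene Lgals3 rose by 1.46 (SE 0.20), Plac8 by 1.07 (SE 0.16) and the actin-capping gene Capg by 1.74 (SE 0.29). Gpnmb, also among the 7, was scarce at 0.0963 to 0.403 CPM in LiK and had 2.78 (SE 0.56). Its counts were 2, 8 and 3 in LiK libraries and 36, 19 and 36 in LiKM libraries. It passed the filter only through LiKM and had to differ, so its call is not given as support. Ly6c2, a marker of inflammatory monocytes, lay between 0.352 and 1.01 CPM in LiK and between 0.705 and 1.59 CPM in LiKM and was not called (0.64). LiKM 3 exceeded every LiK mouse in 13 of these 14 genes, against 5 of the 9 Kupffer cell genes and 14 of the 16 general macrophage markers. The 13 include Gpnmb, S100a4 (6, 5 and 7 counts in LiK libraries) and Trem2 (3, 11 and 7), which passed the filter only through LiKM. Itgax (21, 9 and 29 counts in LiK libraries) and Ly6c2 (21, 7 and 15), also among the 13, needed a LiKM library to pass. The count of 13 was thus partly set by the filter, and a difference between the lists was not tested. The filter can favour scarce members that are high in LiKM, and without LiK 1, LiK 2 or LiKM 2 the number called was 0. The part of recruited cells in the values of Cd68 and the other Kupffer cell genes was not tested.

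Sinusoidal endothelium, which shares Mrc1 with Kupffer cells, had 0 of 12 markers called by edgeR, 0 by DESeq2 and 1 by limma-voom. At an unadjusted p under 0.05, edgeR passed 3 of the 12, where 22.4% of all genes tested did so. These were Cdh5 and Pecam1, higher in LiKM, and Lyve1, lower. The summed level of the 12 was 338 to 390 CPM in LiK and 321 to 481 CPM in LiKM, and LiKM 3 was again the lowest of its group. Stab2 had a log2 fold change of 0.19 (SE 0.12), Clec4g 0.37, Pecam1 0.46, Lyve1 −0.63 and Cdh5, which is also among the other Kupffer cell genes, 0.56. LiKM 3 lay below every LiK mouse in 7 of the 12 markers, LiKM 1 in 1 and LiKM 2 in 0. The part of endothelium in the Mrc1 values was not tested.

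Other cell types that a liver sample can hold were read from their own marker lists. The summed level of 12 T and natural killer cell markers was 3.82 to 7.03 CPM in LiK and 15.5 to 21.6 CPM in LiKM. Of the 10 tested genes, all but Il2rb and Cd4 had at most 8 counts in each LiK library and passed the filter only through LiKM, so their calls are not given as support. Cd8a had 2 to 4 counts in LiK libraries and 45 to 62 in LiKM libraries. The sum of 10 stellate cell markers was 320 to 530 CPM in LiK and 757 to 777 CPM in LiKM, with 3 genes called higher, among them Col1a1 (1.57, SE 0.30). None of 7 tested dendritic cell, 6 B cell or 4 neutrophil markers was called by edgeR, and their summed levels were 9.44 to 11.2, 5.10 to 10.9 and 5.54 to 13.0 CPM in LiK and 11.7 to 15.2, 8.67 to 11.2 and 6.39 to 19.1 CPM in LiKM. At an unadjusted p under 0.05, which 22.4% of all genes tested passed, edgeR passed 3 dendritic cell, 1 B cell and 0 neutrophil markers. DESeq2 and limma-voom each called 1, 0 and 0. The 3 dendritic cell genes were Flt3 (14, 7 and 8 counts in LiK libraries), Xcr1 (10, 8 and 13) and Cd209a (6, 0 and 7). They passed the filter only through LiKM and are not given as support. No gene of these lists was at 0 in every library. Of 6 markers of peritoneal and capsular macrophages, 0 were called by edgeR (1 at an unadjusted p under 0.05, 1 in DESeq2 and 0 in limma-voom), with 3 positive and 3 negative log2 fold changes. Gata6, a factor of peritoneal macrophages, had 0.56, Saa3 −4.14 (SE 1.13, with LiK mice at 174, 157 and 4.10 CPM), Prg4 −0.21 and F5 −0.17. F5 (664 to 898 CPM over all mice) and Prg4 (93.8 to 184 CPM) stood far above Emr1 (8.72 to 17.4 CPM). The cells that their RNA came from were not tested, so their values say little about these macrophages. The tissue label was checked with 8 hepatocyte markers, summing to 135595 to 151281 CPM in LiK and 136901 to 152767 CPM in LiKM, most of it Alb. Of the 8, 1 fell, 0 rose and 5 had negative log2 fold changes. The gene that fell was Serpina1c (−0.93, SE 0.21; adjusted p = 0.0467 in edgeR), a call that held only without LiK 3 among the 6 fits that each lacked a library.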

How the data were processed

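The authors deposited 1 table of raw counts per gene symbol, made with featureCounts on libraries from a stranded mRNA kit, per the labels and the submitters' processing notes, which also name FastQC 0.11.7. For the aligner, build, annotation and strand setting, nothing is stated (not given in the sources used here). Counts were filtered with the edgeR 4.0.16 default (about 10 counts in 3 libraries), scaled by TMM and tested with edgeR's quasi-likelihood test in R 4.3.3, with genotype as the only term, and p was adjusted by Benjamini-Hochberg over 13537 genes. Standard errors came from the coefficient and its F statistic. P-values measure the spread between the 3 mice of each genotype, which the titles name as separate animals.

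The members and the lists were chosen with earlier results of these data known. Of 159 listed genes, 5 were matched by another symbol in RefSeq (Spi1 to Sfpi1, Adgre1 to Emr1). Besides the 9 genes, the text names the listed factors, up to 4 genes with the smallest p in each list, the first marker of each other cell type, Mdm2 and the 5 nearest profiles. Some of these are not reported here, and Emr1 was added after its values were seen. The script was tested on simulated data. Alternatives were DESeq2 1.42.0, limma 3.58.1 (voom with sample weights), other scalings and filters, a replicate block and leaving out each library.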

Additional observations from a re-analysis of the deposited data

How the results depend on the processing

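The 9 genes kept their direction, with 8 positive and 1 negative log2 fold change, in each of 13 other fits. The exception, a scaling chosen after seeing the data, is the level against the summed general macrophage markers, where Clec4f (−0.25), Timd4 (−0.14), Vsig4 (−0.20), Folr2 (−0.17) and Mrc1 (−0.53) turned negative. How many were called higher moved: 4 with library totals (Clec4f, Cd5l, Marco, Cd68), 2 with no filter (Marco, Cd68), 3 in DESeq2 (Cd5l, Marco, Cd68), 4 in limma-voom (Cd5l, Marco, Folr2, Cd68) and 0 to 2 with 1 library left out, while 0 to 0 were called lower. Library totals moved the median log2 fold change of all genes to 0.16, and the median of the 9 genes lay 0.59 above it. Over all genes, 1039 were higher and 63 lower with library totals, 1214 and 377 in DESeq2, 1063 and 260 in limma-voom, and 18 to 525 and 1 to 101 with a library left out. Calls of other Kupffer cell genes numbered 5 in DESeq2 and 6 in limma-voom, and of signal genes 5 in each. The causes were not tested. The titles number the mice 1 to 3 in both genotypes, and deviations of same-numbered mice correlated at 0.27, −0.00 and 0.13, with 4 of 6 libraries closest to their own number. With a replicate block, 2 of the 9 genes were called higher (Cd5l and Cd68), 166 genes in all were lower and 4 recruited macrophage markers were called. Intervals of 3 against 3 mice limit what can be called: that of Mrc1 ran from −0.29 to 0.72.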
